A study of Mus musculus with 27 samples.

Results

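Gene expression was compared between adult mouse ventricles labelled as MBNL1 knockout and control ventricles, both collected 7 days after knockout at postnatal day 60. The comparison takes in the 5 libraries labelled KO and the 4 libraries labelled control that carry this time, 9 of the 27 libraries of the series, and was fitted on these 9 alone. Contractile, channel and fetal gene programmes are touched only in passing, and the description turns to signalling, stress, biosynthetic, organelle and matrix genes. Per the labels, the KO group carries a loss of function of MBNL1 and both groups are ventricle tissue of the same age. The way the knockout was induced, the deleted part of the gene, the strain, the sex and the treatment of the controls are not stated in the sources used here. Nothing in the labels ties each library to an animal of its own, so a p-value reflects only how far these samples scatter, and part of that scatter may be technical.

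Muscleblind-like 1 (MBNL1) is an RNA-binding protein that controls alternative splicing, polyadenylation and stability of many muscle transcripts, and its activity rises as the heart matures after birth. Its sequestration by repeat RNA is a central event in myotonic dystrophy, in which heart and skeletal muscle express fetal splice forms. An injured ventricle in general holds stressed cardiomyocytes, recruited monocytes and fibroblasts that turn into matrix-producing cells, and whole-tissue RNA reads all of these at once. In such tissue, fewer cells of a type and less RNA per cell cannot be told apart.

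Depth was even, with total counts of 22122141 to 24603175 per library, and a count of 0 allows up to 3 counts, which equalled 0.105 to 0.167 CPM, the unit of counts scaled to a common library size used below, which covers counting error only. Mbnl1 itself read 199.7, 93.02, 152, 105 and 153 CPM in KO libraries 1 to 5 and 139.6, 133, 137 and 135 CPM in controls 1 to 4. The groups overlapped, and the log2 difference was 0.05 ± 0.20 (adjusted p = 0.86, edgeR quasi-likelihood test with Benjamini-Hochberg adjustment, as for every adjusted p given here). A gene count does not check a deletion of part of a gene, so "KO" below means the label. The paralog Mbnl2 did not pass the test (-0.34 ± 0.14, adjusted p = 0.0729 in edgeR), though it did without KO library 3 (-0.41, adjusted p = 0.033), without KO libraries 1 and 5 and in a fit of all 16 libraries of day 60. Mbnl3 rose from 0.109 to 0.444 CPM to 0.575 to 1.58 CPM, a low level in both groups. The groups were set apart by Esr1, the gene of estrogen receptor alpha (chr10:4611593-5005614, plus strand), with 214, 1718, 590, 1506 and 177 CPM in the KO libraries and 0.444, 0.762, 1.37 and 1.36 CPM in the controls. Many inducible Cre recombinases carry estrogen receptor sequence. Whether these reads came from the resident gene or from such a construct was not tested, and loss of MBNL1 and carrying or inducing a construct cannot be told apart here.

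Counts of Xist and of Y-linked genes placed KO libraries 1 and 5 and controls 1 and 4 as male, and KO libraries 3 and 4 and controls 2 and 3 as female. KO library 2 held both Xist (5268 counts) and Y-linked reads (3095 counts), so its sex is unclear. It was left out of the comparison of male and female responses. In the fit with sex as a covariate it was counted as female. On the first principal component (70.0% of variance) KO separated from control. The second, with 13.5%, placed KO libraries 1 and 5 at 36.2 and 35.9 and KO libraries 2, 3 and 4 at -33.6, -29.1 and -36.0, with the controls between -0.874 and 12.5. Libraries 1 and 5 were also the KO libraries with the lowest Esr1 level, so sex, Esr1 level and this split cannot be told apart at 7 days. Leaving out library 2 changed the number of calls little, with 3994 higher and 3616 lower. Without libraries 1 and 5 there were 4119 higher and 3845 lower.

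Of 15167 genes tested, 4001 were higher (26.4%) and 3692 lower (24.3%) in the KO libraries at an adjusted p under 0.05. At a change of at least 2-fold, 1906 genes were higher (12.6%) and 1309 lower (8.63%). The 2 groups did not overlap for 6866 genes (45.3%). With 50.7% of genes called in either direction, a list of genes says something about its members only where its counts leave these shares. The scaling of the libraries decides the balance of rises and falls. The TMM factors were 1.11 to 1.16 in the KO libraries and 0.813 to 0.876 in the controls. Scaling by total counts instead moved the median log2 difference over all genes from 0.03 to 0.45 and gave 8065 higher and 1588 lower genes, so that 83.5% of the calls were higher against 52.0%. All differences below are relative to the TMM median, and the lists described below whose median changes sign under total counts are named where they are described.

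Sprr1a had the largest rise among well-expressed genes that were called and whose groups did not overlap, which was the rule for all leading genes. It encodes a small proline-rich protein of the cornified envelope of skin that is also known from stressed heart muscle and injured neurons. It lies at chr3:92483952-92485895, minus strand (GRCm38) and read 209, 62.96, 91.7, 102 and 200.4 CPM in the KO libraries against 0.167, 0.102, 0.102 and 0.0543 CPM in the controls, a log2 difference of 10.23 ± 0.60 (adjusted p = 2.5e-06, edgeR). The 4 controls held 8 counts together and the 5 KO libraries 18106, and libraries 1 and 5 were the highest. Gpnmb, a transmembrane glycoprotein of lipid-loaded macrophages and other phagocytes, read 165, 14.8, 31.8, 15.9 and 147 CPM in the KO libraries and 1.55, 1.37, 1.63 and 0.923 CPM in the controls (5.77 ± 0.94). For Gpnmb libraries 1 and 5 stood far above the other 3 KO libraries.

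AP-1, the dimer of FOS and JUN family proteins, is a textbook regulator of injury genes, and several of its subunits stand in the injury factor list below. Its motif was looked for in the promoters of the genes with the largest rise. The promoters printed here were picked because they hold a motif, and the part of AP-1 in the rises was not tested. RefSeq promoter windows (GRCm38.p6, 250 bases before to 50 after the start) were available for 9 of the 12 genes with the largest rise. The AP-1 motif TGANTCA, read on both strands, occurred in 2 of these 9, Sprr1a at chr3:92485832-92486131 (minus strand) and Gpnmb at chr6:49036268-49036567 (plus strand). It occurred in 8.97% of all promoters in the table, 6.4% of those of tested genes, 10.1% of those of genes at least 2-fold higher and 7.14% of those of genes at least 2-fold lower. The third promoter is that of Srxn1, sulfiredoxin, which repairs oxidised peroxiredoxins and is described with the antioxidant genes. It lies at chr2:152105274-152105573 (plus strand). The antioxidant response element TGACNNNGC, read on both strands, occurred in 17% of the promoters of tested genes and in 10 of 32 (31.2%) of those of the list of NRF2 targets and glutathione genes. In the sequences, 5′ to 3′ on the strand of the gene, capitals mark both motifs. Sprr1a holds 2 AP-1 matches and 1 antioxidant match, which overlaps an AP-1 match. Gpnmb holds 1 AP-1 match, and Srxn1 holds 2 AP-1 matches and 1 antioxidant match that do not overlap.
Sprr1a: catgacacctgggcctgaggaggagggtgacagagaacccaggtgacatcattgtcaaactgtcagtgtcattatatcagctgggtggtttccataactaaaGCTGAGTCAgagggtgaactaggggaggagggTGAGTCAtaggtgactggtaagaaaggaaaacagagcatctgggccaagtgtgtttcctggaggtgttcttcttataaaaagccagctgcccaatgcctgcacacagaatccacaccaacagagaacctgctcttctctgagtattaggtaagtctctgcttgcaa
Gpnmb: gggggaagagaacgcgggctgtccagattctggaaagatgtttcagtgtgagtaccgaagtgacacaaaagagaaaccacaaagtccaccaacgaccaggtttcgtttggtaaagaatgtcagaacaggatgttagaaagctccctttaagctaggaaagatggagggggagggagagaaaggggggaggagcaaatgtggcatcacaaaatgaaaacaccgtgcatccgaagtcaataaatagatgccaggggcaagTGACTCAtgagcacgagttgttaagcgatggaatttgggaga
Srxn1: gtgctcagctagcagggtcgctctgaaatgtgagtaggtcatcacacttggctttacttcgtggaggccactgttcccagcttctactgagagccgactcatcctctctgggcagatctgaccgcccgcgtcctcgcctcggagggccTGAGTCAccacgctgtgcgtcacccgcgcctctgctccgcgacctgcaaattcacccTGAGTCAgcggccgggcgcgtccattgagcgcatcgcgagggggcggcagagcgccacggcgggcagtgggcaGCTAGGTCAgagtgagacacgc
A match is a description of these letters and does not show that a factor binds there.

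The other genes with the largest rises were of several kinds. Secreted matrix and injury proteins included Tnc, the de-adhesive matrix protein tenascin-C, with 260.3, 91.4, 354, 91.1 and 278 CPM in the KO libraries and 1.72, 2.998, 1.93 and 1.09 CPM in the controls (6.79 ± 0.57). Cthrc1, a collagen triple helix repeat protein of activated fibroblasts, rose from 0.217 to 0.406 to 9.69 to 80.2 CPM and was lowest in libraries 1 and 5, at 9.69 and 10.03 CPM. Osteopontin (Spp1, 6.44 ± 0.93) and the metalloprotease inhibitor Timp1 (6.11 ± 0.71) had a wide range among the KO libraries, of 7.40 to 102 CPM and 40.9 to 299.9 CPM. The chemokine receptor Cxcr6, a marker of tissue-resident lymphocytes, went from 0.0543 to 0.203 to 10.6 to 34.9 CPM (7.37 ± 0.59). Chil3, a chitinase-like protein of monocytes and neutrophils, spread from 0.351 to 22.1 CPM against at most 0.152 CPM in the controls (7.13 ± 1.47). Its call was lost in limma-voom (6.13, adjusted p = 0.0635). Serpinb1a, an intracellular inhibitor of neutrophil proteases, rose to 47.6 to 184 CPM from 1.83 to 2.55 CPM. Muscle and epithelial structure genes were present as well, with Tnnt3, the fast skeletal troponin T, at 103, 19.4, 13.5, 30.7 and 41.7 CPM in the KO libraries and 0.222, 0.254, 0.305 and 0.434 CPM in the controls, and keratin 18 (Krt18) at 9.18 to 51.3 CPM against 0.444 to 1.02 CPM.

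**Figure D1:**
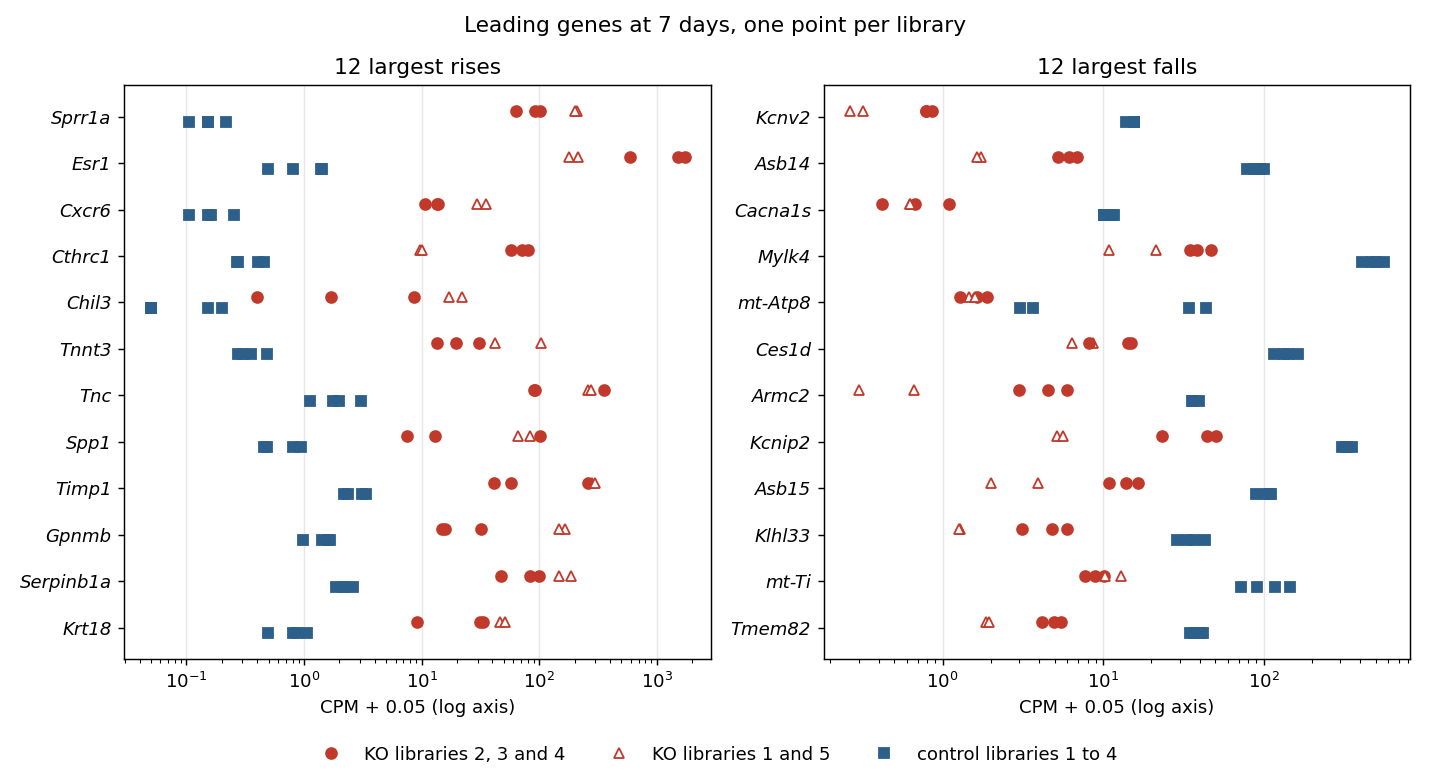
The 12 genes with the largest rise (left) and the 12 with the largest fall (right) among called genes with a mean of at least 5 CPM and groups that do not overlap. Each point is 1 library, on a log axis of CPM plus 0.05. Circles are KO libraries 2, 3 and 4, open triangles KO libraries 1 and 5, and squares the 4 controls. The groups of every gene shown are separate by this rule. For Kcnip2, Asb14 and Klhl33 both triangles lie below the circles.

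The genes with the largest falls were mostly genes of working muscle. Kcnv2, a silent potassium channel subunit, fell from 15.5, 15.4, 15.5 and 13.8 CPM in the controls to 0.268, 0.737, 0.737, 0.809 and 0.216 CPM in the KO libraries (-4.75 ± 0.31, adjusted p = 3.64e-06, edgeR). Kcnip2, the accessory subunit of the transient outward potassium current, fell from 356, 327, 309 and 333 CPM to 5.13, 50.9, 23.4, 44.5 and 5.57 CPM (-3.68 ± 0.63). KO libraries 1 and 5 lay far below the other 3 KO libraries for Kcnip2. Asb14 and Asb15, substrate receptors of muscle ubiquitin ligases, fell by log2 differences of -4.40 ± 0.41 and -3.47 ± 0.50, and Klhl33, of the kelch-like family of such receptors, by -3.45 ± 0.42. Mylk4, a myosin light chain kinase of striated muscle, fell from 412 to 562 CPM to 10.8 to 46.7 CPM. The skeletal calcium channel gene Cacna1s fell from 10.1 to 11.7 CPM to 0.369 to 1.05 CPM, with no order between libraries 1 and 5 and the other KO libraries. Ces1d, a carboxylesterase of lipid handling, fell from 164, 143, 134 and 116 CPM to 8.66, 14.3, 8.11, 14.97 and 6.36 CPM (-3.73 ± 0.25). Armc2 fell to 0.613 and 0.252 CPM in libraries 1 and 5 and to 2.95 to 5.89 CPM in the other KO libraries, from 35.9 to 39.6 CPM. Tmem82 fell from 34.7 to 41.6 CPM to 1.80 to 5.42 CPM. The mitochondrially encoded mt-Atp8 (-3.79 ± 0.75) and mt-Ti (-3.42 ± 0.21) also ranked here, but reads of such genes can be shared with nuclear copies and their values are uncertain. For mt-Atp8 the controls themselves lay at 43.8, 34.04, 2.998 and 3.58 CPM.

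The genes with the smallest p-values were picked in the fit of all 9 libraries. Such a ranking favours genes that change by a similar amount in each KO library. Clusterin (Clu), a secreted chaperone, rose from 707, 619.7, 677 and 693 CPM to 6519, 6263, 4915, 5866 and 5872 CPM (3.13 ± 0.13, adjusted p = 6.77e-07, edgeR). Tspo, the translocator protein of the outer mitochondrial membrane, rose from 23.6 to 28.4 CPM to 109 to 119 CPM. Fibrillin-1 (Fbn1), the backbone of microfibrils, rose from 39.8 to 43.9 CPM to 383 to 596 CPM (3.44 ± 0.15). The others were the membrane metalloprotease Mmp14 (2.37 ± 0.10), collagen XII (Col12a1, 5.03 ± 0.22), the docking protein Dok1 (2.47 ± 0.11), the lysyl oxidase Loxl2 (3.19 ± 0.15) and the lipoprotein and reelin receptor Lrp8 (3.88 ± 0.19). In the other direction were Acsm5, a mitochondrial acyl-CoA synthetase that fell from 5.05 to 7.77 CPM to 0.0702 to 0.180 CPM, and the mitochondrial hydroxyacid-oxoacid transhydrogenase Adhfe1 (-1.94 ± 0.10). For all 10 the response of male and female libraries did not differ in the test (lowest adjusted p of the difference 0.254, for Fbn1, edgeR). The way they were picked favours this outcome, and it does not show that they responded alike. By a strict rule of at most 3 counts over the controls and at least 1 CPM in each KO library, only the noncoding Gm13749 was switched on, with 1 control count and 205 counts over the KO libraries, and no gene was switched off. Gm13749 had a mean under 5 CPM and is named because the count is so small, after its values were seen.

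The 59 pathway lists hold 1779 entries. The plot of list shares sets each list beside the share of all genes. Each list is given by the members tested, those that rose and fell, and the median log2 difference of the tested members beside 0.03 over all genes. Counts of 2 or fewer members changed with the library left out in several lists and carry little weight. Members named were picked among the largest called changes of a list, which makes separate groups likely for them.

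**Figure D2:**
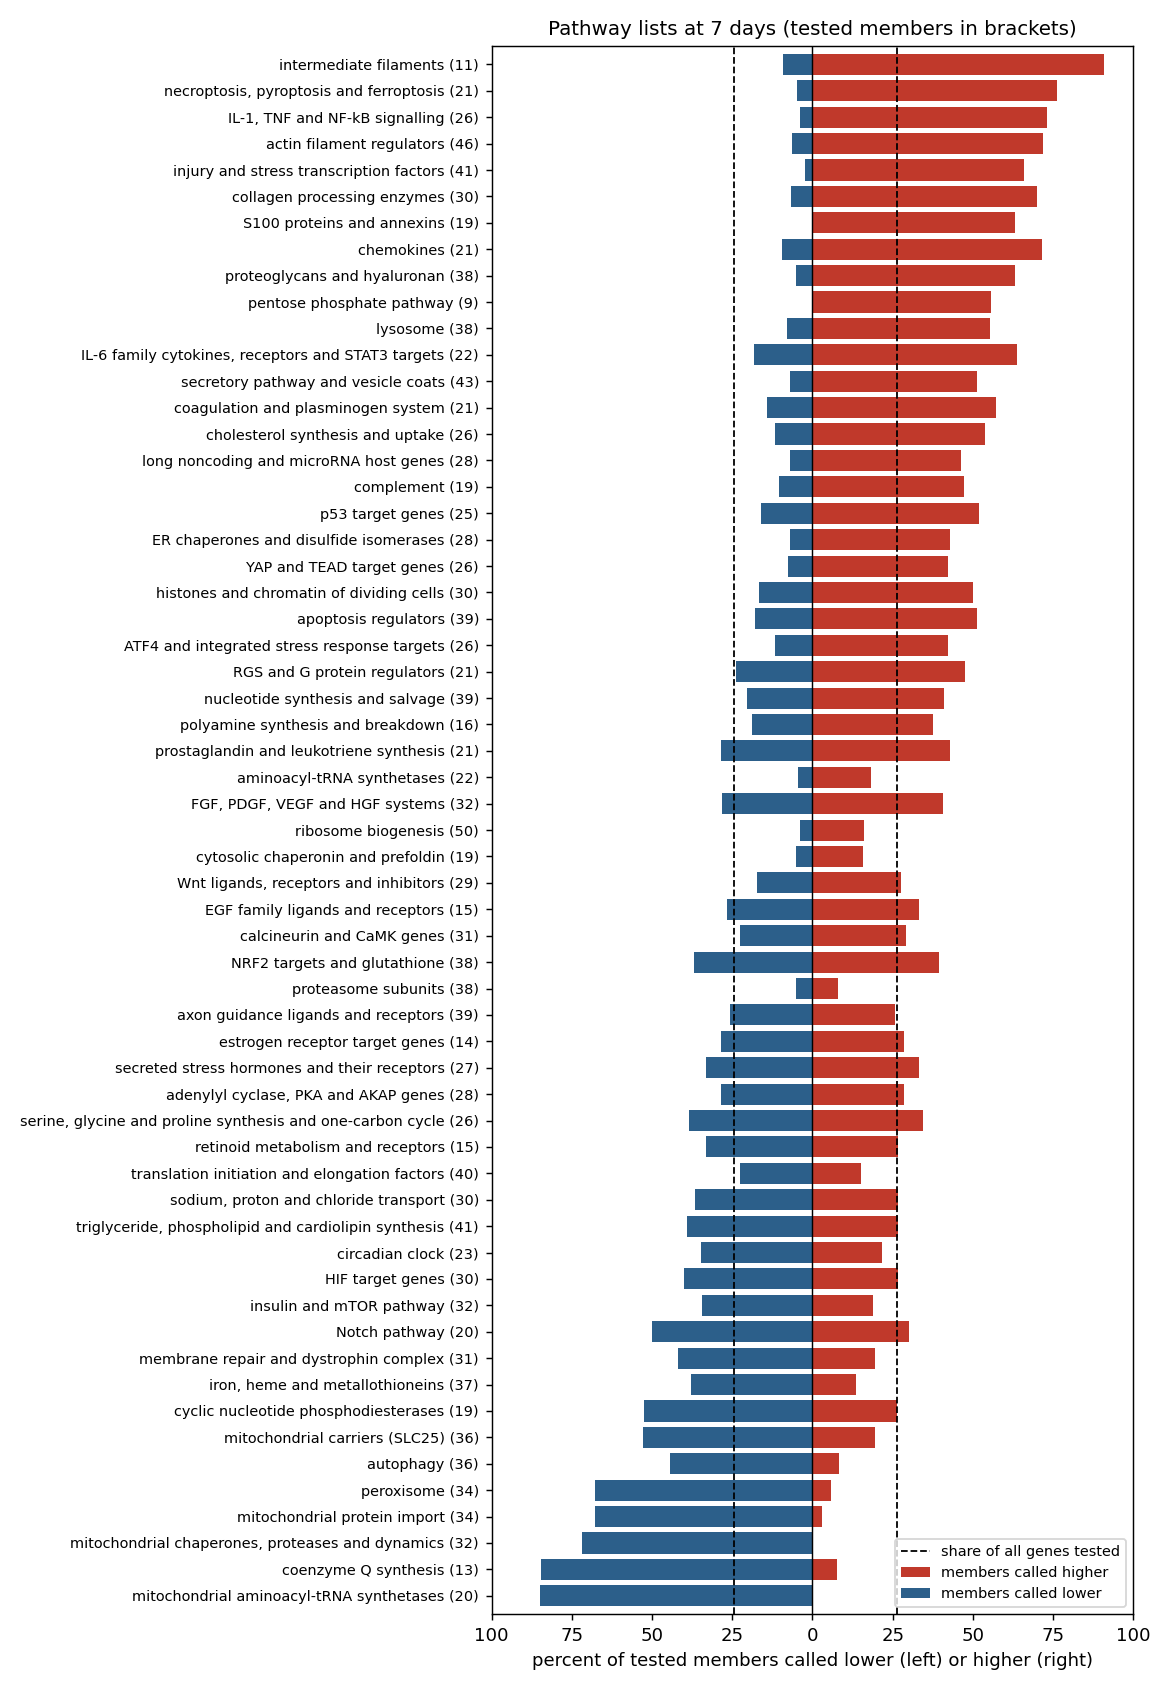
Percent of the tested members of each of 59 pathway lists called lower (left, blue) or higher (right, red) in the KO libraries, with the number tested in brackets. Dashed lines mark the share of all genes called lower (24.3%) and higher (26.4%). The intermediate filament list lies at the top, followed by the list of necroptosis, pyroptosis and ferroptosis, and 4 mitochondrial lists and the peroxisome list lie at the bottom.

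Signals of inflammation rose as a group. In the IL-1, TNF and NF-kB list 19 of 26 tested members rose and 1 fell, with a median of 0.85. The receptor antagonist Il1rn, which blocks the interleukin-1 receptor, went from 0.167, 0.0508, 0.0508 and 0.0543 CPM to 5.59, 1.16, 6.38, 0.957 and 4.64 CPM (5.47 ± 0.85, adjusted p = 0.000442, edgeR). Library 3 was the highest and libraries 2 and 4 the lowest, and all were above the controls. Tnfrsf12a, the receptor of the cytokine TWEAK, was among the more even rises, from 30.7, 45.4, 33.8 and 36.2 CPM to 216, 138, 178, 173 and 214 CPM (2.33 ± 0.17), and Tnfrsf1b, the TNF receptor of leukocytes, rose by 1.55 ± 0.17. Ptgs2, the inducible cyclooxygenase, rose from 0.722 to 1.88 CPM to 4.28 to 10.4 CPM. In the wider prostaglandin and leukotriene list 9 of 21 rose and 6 fell. Its phospholipase Pla2g4a, which frees arachidonic acid, rose from 3.28 to 4.42 CPM to 11.7 to 15.8 CPM, and the prostaglandin D synthase Hpgds from 0.864 to 1.32 CPM to 3.79 to 7.30 CPM.

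Interleukin-6 family ligands differed several-fold between KO libraries. The list rose in 14 of 22 tested members and fell in 4, with a median of 0.75. Lif, leukaemia inhibitory factor, a ligand of the gp130 receptor, read 11.8, 0.666, 1.55, 1.10 and 11.8 CPM in the KO libraries and 0.0555, 0.0508, 0.203 and 0.380 CPM in the controls (4.93 ± 1.18). Clcf1, another ligand of the family, read 50.03, 6.45, 6.52, 6.25 and 28.9 CPM against 2.55, 3.25, 3.35 and 2.12 CPM (2.79 ± 0.71). For both ligands libraries 1 and 5 lay several-fold above the other 3 KO libraries, which lay above all controls. Socs3, the feedback inhibitor that STAT3 induces, followed with 50.1, 8.07, 23.1, 10.4 and 41.99 CPM against 4.33, 7.62, 5.28 and 5.70 CPM (2.22 ± 0.53). Lcn2, the siderophore-binding lipocalin of acute inflammation, read 132, 11.1, 32.1, 21.01 and 197 CPM against 9.89, 9.65, 13.7 and 7.55 CPM, and library 2 lay within the controls (2.95 ± 0.80). Lif, Clcf1 and Lcn2 lost their call in limma-voom, with adjusted p of 0.0647, 0.0598 and 0.0656. Without libraries 1 and 5 the list held 11 higher members and its median was 0.42. Without control 1, 2 members were lower.

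Among chemokines and their receptors 15 of 21 tested members rose and 2 fell (median 1.42), and without libraries 1 and 5 5 fell. Ccl2, which attracts monocytes, read 17.2, 0.982, 8.59, 2.43 and 16.6 CPM against 0.389, 0.711, 0.406 and 1.52 CPM (3.59 ± 0.87), and its groups overlapped through library 2. That call was lost in limma-voom (3.07, adjusted p = 0.0837). Ccl8 showed the other order, with 1.99, 7.79, 5.57, 5.63 and 2.37 CPM and the lowest KO values in libraries 1 and 5, against 0.4998, 1.07, 0.864 and 0.815 CPM. The membrane-bound chemokine Cx3cl1 had this order too, at 21.4, 41.9, 30.4, 30.9 and 23.2 CPM against 10.9, 12.9, 8.74 and 9.34 CPM. Complement genes rose in 9 of 19 tested members. C3ar1, the receptor of the C3a fragment, went from 6.25 to 7.05 CPM to 22.4 to 45.5 CPM (2.35 ± 0.19), and C1qb, a chain of C1q, from 71.2 to 95.5 CPM to 186 to 247 CPM. In the coagulation and plasminogen list 12 of 21 rose and 3 fell. Procr, the endothelial protein C receptor, read 29.5, 1.86, 2.51, 1.73 and 27.04 CPM against 0.833, 0.813, 1.47 and 0.652 CPM, so that nearly all of its rise lay in libraries 1 and 5. Its call was lost in limma-voom (2.63, adjusted p = 0.151). Serpina3n, a serine protease inhibitor of the acute phase, rose from 15.4 to 16.5 CPM to 85.4 to 221 CPM.

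Markers of macrophages and monocytes were higher beside these lists. Of 10 macrophage markers 8 rose and 1 fell, and their summed level was 1022 to 1462 CPM in the KO libraries against 409 to 480.1 CPM in the controls. All 7 monocyte markers rose, with sums of 27.5 to 98.8 CPM against 4.18 to 7.93 CPM. Cd68, a lysosomal protein of macrophages, read 89.6, 44.1, 94.5, 42.9 and 106 CPM against 10.9, 16, 15.7 and 19.3 CPM, and Adgre1, the F4/80 antigen, 37.2, 43.2, 67.2, 43.97 and 40.8 CPM against 8.22, 12.7, 11.8 and 11.7 CPM. Fcgr1, the high-affinity antibody receptor, rose by 3.06 ± 0.29 and Ccr2, the receptor of Ccl2, by 4.57 ± 0.44. Of the neutrophil markers 1 of 5 tested rose, of the T and NK cell markers 4 of 5, and of the B cell markers 3 of 4. Without control 2, 3 neutrophil markers rose, and with a mean of at least 1 CPM 2 T and NK cell markers did. That filter tested 13389 genes in place of 15167, so members can leave the test rather than lose a call. Of the dendritic cell markers 4 of 6 rose and 1 fell, but their summed levels overlapped, at 20.5 to 21.8 CPM in the KO libraries and 18.99 to 24.6 CPM in the controls. With a mean of at least 1 CPM, 1 of them rose and the median was -0.21. The part of these cells in the cytokine, complement and lysosome results was not tested.

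Growth signals moved member by member. In the EGF family, 5 of 15 tested members rose and 4 fell, shares near those of all genes. The ligand Ereg (epiregulin) was nearly silent in the controls, at 0, 0.254, 0.0508 and 0 CPM, and read 5.90, 1.93, 4.35, 2.06 and 4.82 CPM in the KO libraries (5.50 ± 0.70, adjusted p = 0.000122, edgeR). The ligand Hbegf rose from 23.9 to 32.4 CPM to 75.8 to 127 CPM. Egf itself fell from 13.2, 11.03, 8.48 and 11.5 CPM to 1.80, 3.09, 2.54, 3.02 and 1.83 CPM (-2.16 ± 0.20). The groups did not overlap for any of the 3 ligands, as for 45.3% of all genes tested. In the FGF, PDGF, VEGF and HGF list 13 of 32 rose and 9 fell, with a median of 0.14 that turned to -0.07 without libraries 1 and 5 and to -0.04 without library 1. Met, the receptor of hepatocyte growth factor, went from 0.597 to 1.27 CPM to 4.31 to 9.42 CPM, and Fgf13, a partner of sodium channels, fell from 73.8 to 83.4 CPM to 10.2 to 42.4 CPM.

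Among secreted Frizzled-related proteins, which bind Wnt ligands, Frzb read 31.4, 53.8, 38.1, 50.1 and 33.8 CPM against 7.39, 7.32, 8.13 and 6.35 CPM (2.50 ± 0.18). Sfrp1 read 27.1, 109, 99.5, 113 and 43.1 CPM against 16.9, 14.2, 17.6 and 13.1 CPM (2.34 ± 0.40) and Sfrp2 3.95, 95.3, 16.6, 61.96 and 5.72 CPM against 3.998, 4.67, 3.71 and 3.58 CPM (3.20 ± 0.90). Both had their lowest KO values in libraries 1 and 5, where Sfrp2 lay at the control level, and the Sfrp2 call was lost in limma-voom (2.23, adjusted p = 0.151). Over the Wnt list 8 of 29 rose and 5 fell, a share of rises near that of all genes, and 3 fell without library 1, library 5, control 1 or control 2. Of the targets of YAP and TEAD, the effectors of Hippo signalling, 11 of 26 rose and 2 fell, and without libraries 1 and 5 6 fell. Ankrd1 went from 639, 683, 399.7 and 452 CPM to 3208, 3237, 3908, 3557 and 2729.9 CPM (2.61 ± 0.19) and Ccn2, connective tissue growth factor, from 126 to 275 CPM to 790 to 1142 CPM. The ligand Tgfb2 on the same list read 129.8, 37.2, 57.4, 49.8 and 94.9 CPM against 10.8, 11.2, 11.8 and 8.58 CPM.

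In the Notch list 10 of 20 tested members fell and 6 rose, with a median of -0.23 that turned to 0.19 under total count scaling. The targets Hey1 and Hey2, repressors that Notch induces in endothelium and heart muscle, fell by -1.26 ± 0.16 and -0.90 ± 0.18. Hey1 read 5.59, 7.54, 5.45, 8.35 and 8.70 CPM in the KO libraries and 16.2, 18.5, 15.8 and 18.03 CPM in the controls, with no overlap. Among axon guidance genes 10 of 39 rose and 10 fell, shares near those of all genes, and 6 fell without control 1 or control 3. The ephrin receptor Epha4 fell from 23.4 to 32.4 CPM to 3.78 to 8.87 CPM (-2.05 ± 0.23), and the netrin receptor Unc5b rose from 19.99 to 22.3 CPM to 46.03 to 63.8 CPM (1.39 ± 0.10). Of the retinoid genes 4 of 15 were higher, near the share of all genes, and 5 lower (33.3%, against 24.3% of all genes). Their median of -0.04 turned to 0.37 under total count scaling and was above 0 without library 2 or any single control. With no filter on low counts, which tests more genes, 7 were higher. Aldh1a2, the enzyme that makes retinoic acid, read 142, 23.4, 68.6, 21.4 and 136 CPM against 2.61, 4.22, 3.05 and 4.996 CPM (4.39 ± 0.66, adjusted p = 0.000346, edgeR). The receptor Rarb fell from 6.08 to 6.76 CPM to 2.48 to 3.50 CPM.

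Secreted stress hormones and their receptors gave 9 of 27 higher and 9 lower, with a median of -0.09 that turned to 0.33 under total count scaling. Gdf15, a hormone of cell stress that curbs appetite, read 20.2, 12.1, 11.5, 11.1 and 19.8 CPM against 1.999, 2.39, 1.93 and 2.72 CPM (2.73 ± 0.25). Gdf6, a bone morphogenetic protein, read 36.5, 8.56, 25.2, 11.3 and 32.9 CPM against 0.889, 0.203, 0.508 and 0.597 CPM (5.38 ± 0.58). The follistatin-like glycoprotein Fstl1 rose from 82.1 to 98.8 CPM to 423 to 838 CPM. Penk, the precursor of enkephalins, fell from 3.10 to 8.33 CPM to 0.405 to 1.29 CPM. For each of these 4 genes the groups did not overlap, as for 45.3% of all genes tested.

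Transcription factors of injury and stress rose in 27 of 41 tested members (median 1.17), and 1 fell. Egr2, an immediate early zinc finger factor, read 10.7, 4.81, 10.4, 7.51 and 8.38 CPM in the KO libraries and 0.167, 0.457, 0.305 and 0.380 CPM in the controls (4.64 ± 0.34, adjusted p = 6.16e-06, edgeR). Sox9, which drives matrix genes in cartilage and in scar fibroblasts, read 10.5, 17.2, 26.7, 20.6 and 16.5 CPM against 1.999, 1.37, 1.83 and 1.57 CPM (3.43 ± 0.27), and it was lowest in library 1. Etv4, an ETS factor downstream of growth factor receptors, read 8.70, 7.44, 5.97, 6.59 and 10.03 CPM against 0.833, 0.914, 0.559 and 0.652 CPM (3.38 ± 0.23). None of these 3 overlapped between the groups, which held for 45.3% of all genes tested.

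Clock genes were called in both directions, 5 of 23 higher and 8 lower, with a median of -0.13 that turned to 0.29 under total count scaling. The higher members numbered 2 without control 1 and 3 without control 2, 3 or 4, without library 1 or 5 and in limma-voom. Arntl, the core activator BMAL1, read 19.04, 2.07, 4.39, 5.37 and 18.4 CPM against 1.11, 1.27, 4.22 and 2.61 CPM, high in libraries 1 and 5. Its call (2.09 ± 0.69) was lost without those libraries (0.78, adjusted p = 0.175), without either of them and in limma-voom. Over its alternatives the adjusted p that missed the threshold ran from 0.0535 to 0.175. Bhlhe41, a repressor of the clock, rose from 14.8 to 25.99 CPM to 45.7 to 74.9 CPM, and Hlf, an output factor, fell from 47.9 to 67.1 CPM to 12.1 to 38.3 CPM. The hour of collection was not given in the sources used here, and its part in these values was not tested. Beside the Esr1 level, the list of textbook targets of the estrogen receptor had 4 of 14 tested members higher and 4 lower, near the shares of all genes. Among them Ccn5 rose (2.45 ± 0.23) and Celsr2 fell (-1.53 ± 0.24).

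Long noncoding RNAs and host genes of microRNAs rose in 13 of 28 tested members and fell in 2. Rian, a maternally expressed RNA of the Dlk1-Dio3 region, rose from 5.39 to 7.72 CPM to 12.3 to 22.7 CPM. Dnm3os, a host of microRNAs, rose from 2.89 to 4.13 CPM to 7.32 to 16.5 CPM, and Mhrt fell from 18.05 to 38.9 CPM to 6.24 to 23.6 CPM, with overlap. Dnm3os lies antisense to Dnm3 and Mhrt antisense to Myh7, and without a stated strand setting their reads cannot be told apart from those of these partners.

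Several lists of genes that make and handle protein set libraries 1 and 5 apart from the other KO libraries. In the list of ribosome biogenesis 8 of 50 tested members rose and 2 fell, below the share of all genes, although the median was 0.28. Rrp12, a factor of ribosome export, read 129.8, 35.6, 40.2, 40.5 and 122 CPM against 28.1, 25.4, 24.5 and 28.1 CPM (1.47 ± 0.42), which shows libraries 1 and 5 several-fold above all others. Without these libraries 4 members of the list were higher and 10 lower, and the median was -0.05. Leaving out any single control, or library 1 or 5, brought the higher members to 3 or 4, limma-voom to 5, and a fit with sex as a covariate to 15. Proteasome subunits had 3 of 38 higher, 2 lower and a median of 0.30 that turned to -0.09 without libraries 1 and 5, where 9 were lower. The higher members numbered 8 without library 2, 7 without library 4, 8 with sex as a covariate, 6 in the fit of 16 libraries and 5 in DESeq2. The subunit Psma5 read 92.5, 39.6, 42.6, 40.8 and 104 CPM against 32.6, 31.4, 30.03 and 32.1 CPM (1.02 ± 0.31). Psme1, of the activator cap that interferon induces, fell evenly, from 108 to 122 CPM to 53.97 to 63.9 CPM.

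Translation factors rose in 6 of 40 and fell in 9, with a median of 0.11 that turned to -0.09 without libraries 1 and 5. Eef1a1, the elongation factor of most tissues, read 2301, 1972, 2283, 1993 and 2342 CPM against 818, 864, 850 and 786 CPM (1.39 ± 0.10), and Eif1a, which scans for start codons, rose by 1.46 ± 0.25. Near-identical copies of Eef1a1 exist in the genome, so its value is uncertain. Cytosolic aminoacyl-tRNA synthetases rose in 4 of 22 tested members and fell in 1. None rose without control 3, 1 without control 2, control 4, library 1 or library 5, and 2 without control 1, so this count rests on single libraries. Without libraries 1 and 5 1 rose and 4 fell. Of their mitochondrial counterparts 17 of 20 fell and none rose, with a median of -0.69 and of -0.26 under total count scaling, where 5 fell. Fars2, the mitochondrial phenylalanine enzyme, read 23.8, 30.8, 32.2, 28.5 and 19.5 CPM against 67.5, 54.2, 54.9 and 58.1 CPM (-1.12 ± 0.15).

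Targets of ATF4, the factor of the integrated stress response, rose in 11 of 26 tested members and fell in 3. Slc7a5, a carrier of large neutral amino acids, read 55.9, 19.05, 21.3, 21.6 and 59.6 CPM against 8.89, 13.2, 10.7 and 10.4 CPM (1.72 ± 0.38), and Vldlr, a lipoprotein receptor also on this list, fell from 329 to 450.3 CPM to 53.3 to 136 CPM. In the list of serine, glycine, proline and one-carbon metabolism 9 of 26 rose and 10 fell, and 6 fell without control 1 or control 4. Its median of -0.10 turned to 0.32 under total count scaling. Phgdh, which opens serine synthesis, read 6.59, 4.07, 7.04, 3.64 and 6.98 CPM against 1.39, 0.864, 1.12 and 1.30 CPM (2.28 ± 0.27). Pycr1, which closes proline synthesis, rose from 0.915 to 1.83 CPM to 6.29 to 8.81 CPM, and Tyms, thymidylate synthase, from 0.777 to 1.47 CPM to 5.52 to 11.4 CPM.

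Chaperones and disulfide isomerases of the endoplasmic reticulum rose in 12 of 28 tested members and fell in 2 (median 0.26). Both that fell are named here. Cdnf, a neurotrophic factor of the endoplasmic reticulum, read 2.80, 6.84, 5.79, 6.70 and 2.77 CPM against 25.1, 21.1, 22 and 19.9 CPM (-2.14 ± 0.27), and Herpud1, a membrane protein of the degradation complex there, 139.8, 357, 198, 343 and 109.7 CPM against 759, 808, 833 and 707 CPM (-1.76 ± 0.32). Pdia5, an isomerase, rose from 3.45 to 4.12 CPM to 7.98 to 12.3 CPM. In the secretory pathway 22 of 43 rose and 3 fell, with a median of 0.27. Kdelr3, which retrieves chaperones to the endoplasmic reticulum, read 21.03, 17.2, 25.6, 16.7 and 21.9 CPM against 3.89, 4.01, 3.76 and 4.13 CPM (2.37 ± 0.15). Creb3l2, a factor that enlarges the pathway in collagen-making cells, read 126, 128, 125, 126 and 111 CPM against 53.04, 52.4, 55.6 and 48.3 CPM (1.23 ± 0.08). Neither of these genes separated libraries 1 and 5 from the rest. Of the cytosolic chaperonin and prefoldin genes 3 of 19 rose and 1 fell. This count rests on single libraries, with 6 higher without library 2, 5 without library 4, and 1 without library 1, library 3 or control 1, 2 or 3. The cytosolic chaperone Hsp90aa1 of that list read 350.1, 109.6, 139, 133 and 299 CPM against 75.3, 75.6, 79.6 and 87.2 CPM (1.38 ± 0.34), highest in libraries 1 and 5.

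Lysosome genes rose in 21 of 38 tested members and fell in 3 (median 0.37). The protease cathepsin S (Ctss), of antigen-presenting cells, rose from 16.3 to 20.5 CPM to 83.4 to 149.8 CPM, and cathepsin Z (Ctsz) from 27.5 to 29.6 CPM to 70.5 to 100.8 CPM, beside the macrophage markers given above. Autophagy genes fell in 16 of 36 and rose in 3, with a median of -0.20 that turned to 0.23 under total count scaling. The rising members numbered 6 without library 3 and 1 without control 2, 3 or 4. Pink1, the kinase that marks damaged mitochondria, read 291, 249, 201, 230 and 257 CPM against 798, 705, 654 and 590.4 CPM (-1.48 ± 0.13, adjusted p = 1.42e-05, edgeR). Optn, an adaptor of the same process, fell from 79.4 to 105 CPM to 39.8 to 49.4 CPM. Pink1 and Optn did not overlap between the groups, as 45.3% of all genes tested did not, and both fell by a similar size in every KO library.

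**Figure D3:**
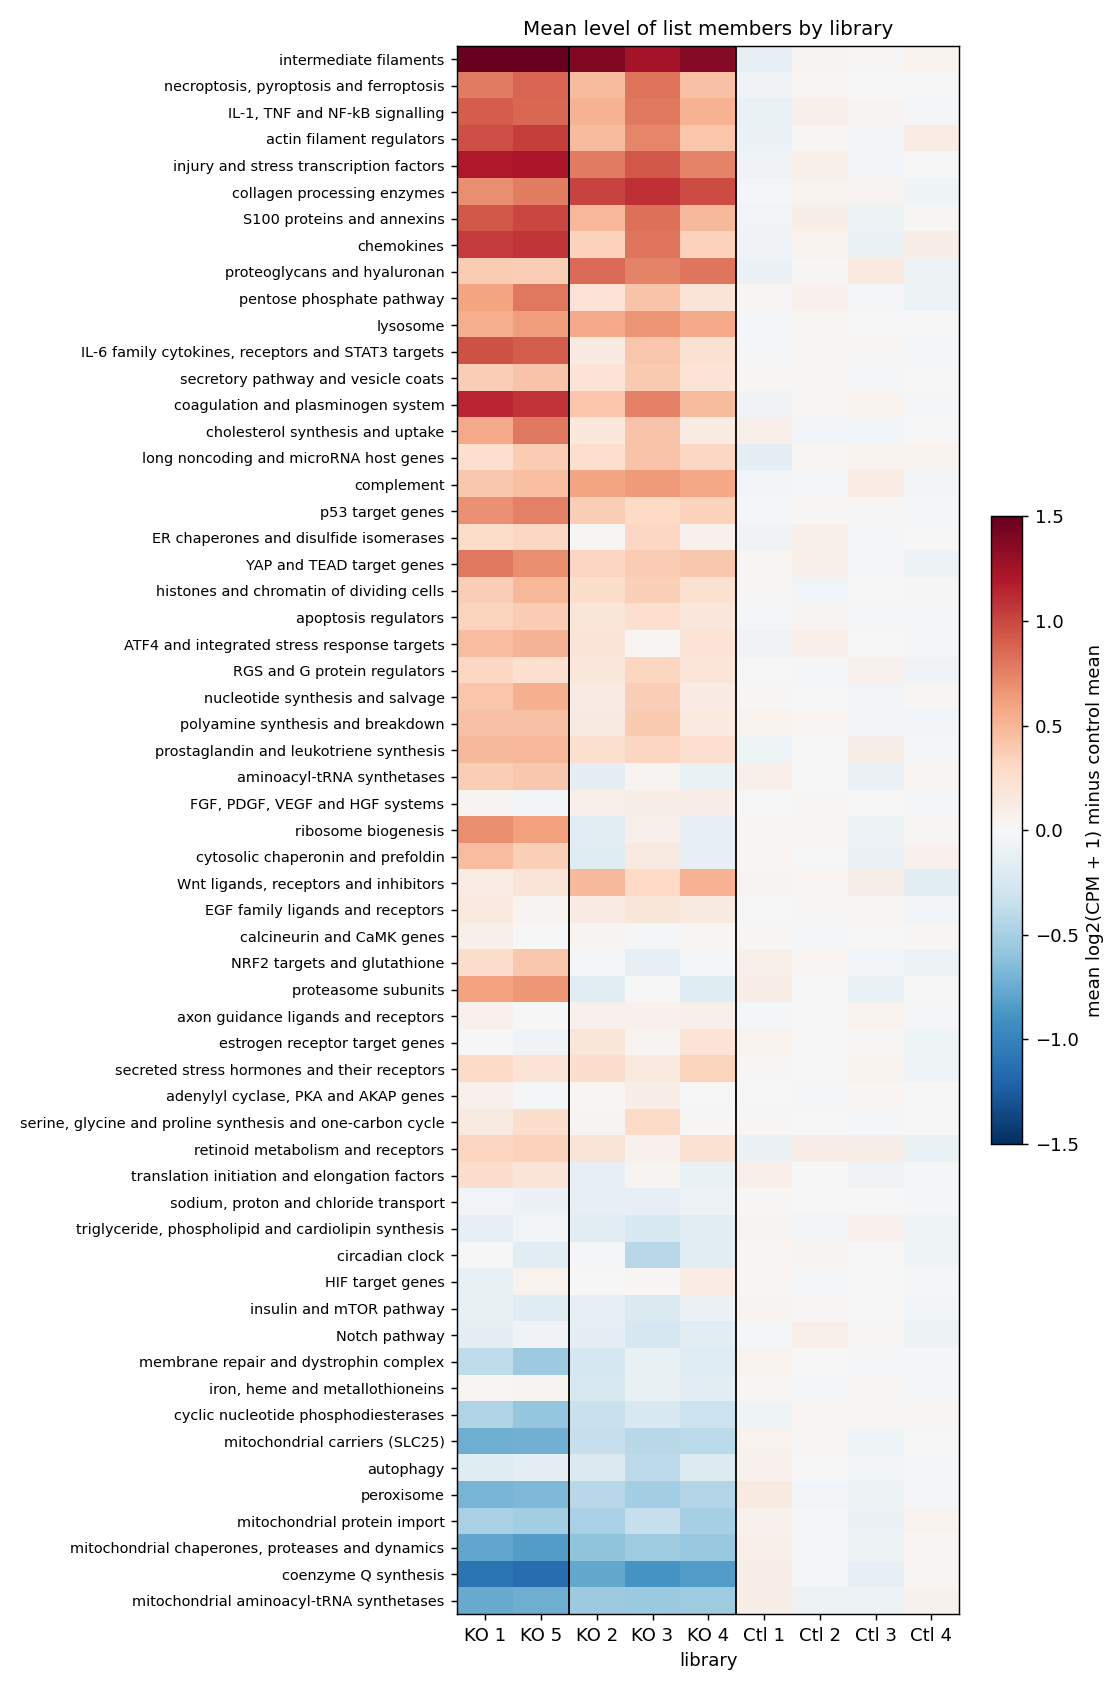
Mean level of the tested members of each pathway list in each of the 9 libraries, as mean log2(CPM + 1) minus the control mean (red above, blue below). Rows follow the order of the plot of list shares, and KO libraries 1 and 5 stand first. Ribosome biogenesis, proteasome subunits and translation factors are red in libraries 1 and 5 and near white in KO libraries 2, 3 and 4, whereas the mitochondrial lists are blue in all 5.

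Pathways of cell growth metabolism rose in part. Nucleotide synthesis and salvage genes were higher in 16 of 39 tested members and lower in 8. Uck2, which salvages uridine and cytidine, read 483, 162, 261, 208 and 543 CPM against 50.1, 45.4, 45.5 and 49.7 CPM (2.80 ± 0.35, adjusted p = 0.000119, edgeR). Every KO library was far above the highest control, and libraries 1 and 5 were the highest. Adenosine deaminase (Ada) rose from 0.706 to 0.944 CPM to 2.47 to 4.94 CPM. In the pentose phosphate pathway 5 of 9 rose and 0 fell. Its gate enzyme G6pdx read 27.8, 18.1, 23.4, 19.1 and 34.9 CPM against 9.94, 11.5, 9.86 and 9.23 CPM (1.28 ± 0.19) and Pgd, a later dehydrogenase, 115, 58.8, 76.6, 58.8 and 136 CPM against 35.4, 39.8, 36.5 and 38.7 CPM (1.24 ± 0.25). Polyamine genes rose in 6 of 16 and fell in 3. Odc1, which makes putrescine, rose from 50.5 to 63.2 CPM to 78.6 to 201 CPM, and Amd1, which supplies the propyl groups, fell from 124 to 141 CPM to 37.97 to 71.1 CPM, so the main synthetic enzymes moved in opposite directions.

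Genes of cholesterol synthesis and uptake rose in 14 of 26 tested members and fell in 3 (median 0.47). Squalene epoxidase (Sqle) read 15.2, 3.23, 6.19, 3.16 and 18.9 CPM against 1.89, 1.37, 1.47 and 1.79 CPM (2.52 ± 0.58). Libraries 1 and 5 were the highest and libraries 2 and 4 the lowest of the KO group. Soat1, which esterifies cholesterol for storage, rose from 4.11 to 5.79 CPM to 14.9 to 24.9 CPM. Without control 2 the higher members of the list numbered 9. For triglyceride, phospholipid and cardiolipin synthesis 16 of 41 fell and 11 rose, with a median of -0.10 that turned to 0.32 under total count scaling. Dgat2, which closes triglyceride synthesis, fell from 713 to 868 CPM to 181 to 345 CPM, and Lpin1, a phosphatase before it, from 324 to 415 CPM to 100.6 to 194 CPM. Plin2, the coat of lipid droplets, rose instead, to 260, 88.6, 87.3, 77.2 and 209 CPM against 68.3, 54.97, 49.2 and 50.8 CPM (1.37 ± 0.37).

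Of the NRF2 targets and glutathione genes 15 of 38 tested rose and 14 fell, with a median of 0.18 that turned to -0.21 without libraries 1 and 5. Hmox1, heme oxygenase, read 209, 61.5, 87.9, 61.7 and 245 CPM against 13.9, 17.2, 13.6 and 13.3 CPM (3.20 ± 0.46, adjusted p = 0.000274, edgeR). Srxn1, whose promoter is printed above, read 197, 55.98, 42.1, 58.9 and 390 CPM against 23.4, 29.1, 24.1 and 22.6 CPM (2.58 ± 0.65). Both rose in all 5 KO libraries and lay several-fold higher in libraries 1 and 5. Gstk1, a mitochondrial and peroxisomal glutathione transferase, fell to 18.9, 21.96, 17.5, 22.8 and 20.7 CPM from 93.6, 72.1, 65.2 and 81.5 CPM (-1.94 ± 0.12), the same in each KO library. In the iron, heme and metallothionein list 14 of 37 fell and 5 rose, with a median of -0.16 that turned to 0.26 under total count scaling. Mt2, a metallothionein, rose to 18.8 to 68.2 CPM from 11.7 to 13.8 CPM, and Bola3, a factor of iron-sulfur cluster transfer, fell from 115 to 134 CPM to 40.95 to 63.9 CPM. HIF targets gave 8 of 30 higher and 12 lower, with a median of -0.13 against 0.29 under total count scaling. The lactate exporter Slc16a3 rose from 2.999 to 3.71 CPM to 16.9 to 42.8 CPM (3.16 ± 0.30), and Egln1, the main oxygen sensor of the pathway, fell from 516 to 583 CPM to 148 to 240.3 CPM (-1.45 ± 0.15).

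Mitochondrial and peroxisomal lists held the largest shares of falling genes among the pathway lists. Coenzyme Q synthesis fell in 11 of 13 tested members (84.6%) and rose in 1, with a median of -0.95, and 8 fell under total count scaling. Coq8a, a kinase-like factor of the synthesis complex, read 89.9, 231, 206, 200.3 and 63.5 CPM against 814, 630.1, 546 and 636 CPM (-2.05 ± 0.35), lowest in libraries 1 and 5. Coq10a, a carrier of coenzyme Q, fell evenly, from 334 to 371 CPM to 91.1 to 136 CPM (-1.72 ± 0.13, adjusted p = 6.16e-06, edgeR). In the list of mitochondrial chaperones, proteases and dynamics 23 of 32 fell and none rose (median -0.66). Mtfp1, a factor of mitochondrial fission, read 11.3, 35.5, 47.8, 37.6 and 8.56 CPM against 124, 132, 132 and 149.7 CPM (-2.25 ± 0.44). Chchd10, of the intermembrane space, read 443, 569, 397, 537 and 421 CPM against 1156, 1124, 1075 and 1086 CPM (-1.23 ± 0.12). Protein import fell in 23 of 34 and rose in 1 (median -0.52). Samm50, which inserts barrel proteins into the outer membrane, fell from 199 to 245 CPM to 86.6 to 124 CPM. Under total count scaling these lists had 14 and 9 falling members and 7 and 5 rising ones, so the size of the effect depends on the scaling.

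Carriers of the SLC25 family fell in 19 of 36 and rose in 7, with a median of -0.41 that was 0.01 under total count scaling. Slc25a34, an orphan carrier, read 34.6, 90.3, 109, 79.3 and 14.8 CPM against 378, 284, 261 and 241 CPM (-2.15 ± 0.47), and Slc25a11, which exchanges malate and oxoglutarate, 123, 284, 251, 269.9 and 129 CPM against 712, 619, 574 and 639 CPM (-1.59 ± 0.26). Peroxisome genes fell in 23 of 34 and rose in 2 (median -0.57, and -0.14 under total count scaling). Ech1, an isomerase of unsaturated fatty acids in mitochondria and peroxisomes, read 376, 241, 286, 235 and 410.4 CPM against 1529, 1324, 1136 and 1197 CPM (-2.07 ± 0.19). Phyh, which opens phytanic acid breakdown, fell from 604 to 747 CPM to 185 to 288 CPM. For Ech1 and Phyh libraries 1 and 5 were the highest of the KO group, the reverse of Coq8a, Mtfp1 and Slc25a34. Beside these falls, 8 of 10 ventricular cardiomyocyte markers fell, with summed levels of 15691 to 33754 CPM against 51423 to 56289 CPM. Without control 4 the number was 5, as it was under total count scaling. Tnni3, cardiac troponin I, fell from 3724 to 4293 CPM to 1042 to 1399.8 CPM and Pln, phospholamban, from 1336, 1299, 1236 and 1265 CPM to 112, 308, 498, 324 and 57.4 CPM. The part of a lower cardiomyocyte share in the mitochondrial falls was not tested. Of 10 markers of blood endothelium 7 fell (median -0.46, and -0.04 under total count scaling), and all 6 of red cells fell, among them Hbb-bs at 114 to 381 CPM against 399 to 922 CPM. Of the other resident cell lists, that of fibroblasts had 3 of 10 members higher and 1 lower, and 6 higher without libraries 1 and 5. Of 10 smooth muscle and pericyte markers 3 rose and 4 fell, with summed levels of 7531 to 9629.9 CPM against 3827 to 4269 CPM and a median of -0.04 that turned to 0.38 under total count scaling. A sum follows its most abundant members, and with more members falling than rising it does not show a rise of this list. Of 6 lymphatic markers 1 rose and 1 fell, with a median of -0.40 that turned to 0.02 under total count scaling.

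Signalling of the working heart changed gene by gene. Cyclic nucleotide phosphodiesterases fell in 10 of 19 tested members and rose in 5 (median -0.65). Pde4c, which degrades cyclic AMP, read 3.10, 2.67, 1.95, 2.69 and 2.27 CPM against 11.7, 14.4, 14.9 and 14.8 CPM (-2.46 ± 0.15, adjusted p = 3.2e-06, edgeR), and Pde1b, which calcium and calmodulin activate, rose from 1.78 to 2.39 CPM to 4.84 to 9.999 CPM. Under total count scaling 6 fell and 6 rose. Of adenylyl cyclase, kinase and anchor genes 8 of 28 were higher and 8 lower, near the shares of all genes. Their median of -0.03 turned to 0.39 under total count scaling and changed sign with several single libraries left out. Adcy7, a cyclase of blood cells and fibroblasts, read 57.2, 77.4, 85.95, 74.4 and 62.5 CPM against 15.99, 16.5, 18.2 and 17.3 CPM (2.07 ± 0.13). Regulators of G protein signalling rose in 10 of 21 and fell in 5, with Rgs10 from 3.75 to 5.18 CPM to 11.8 to 13.8 CPM. Calcineurin and CaM kinase genes rose in 9 of 31 and fell in 7, near the shares of all genes, and their median of -0.03 turned to 0.39 under total count scaling. It also changed sign without library 3, library 5 or control 2. Rcan1, a feedback inhibitor that calcineurin induces, read 322, 209, 309, 292 and 388 CPM against 66.9, 82.2, 74.2 and 91.99 CPM (1.95 ± 0.18). Hdac4, a histone deacetylase under CaM kinase control, fell from 55.7 to 69.2 CPM to 19.02 to 24.4 CPM (-1.47 ± 0.10). For Rcan1 and Hdac4 no KO library reached the controls, and 45.3% of all genes tested had such separate groups.

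In the insulin and mTOR list 11 of 32 fell and 6 rose, with a median of -0.07 that turned to 0.36 under total count scaling. Slc2a4, the insulin-regulated glucose carrier, read 94.97, 282, 209, 266 and 110.3 CPM against 655, 656, 681 and 688 CPM (-1.80 ± 0.30). Pik3cg, a lipid kinase of leukocytes, rose from 2.67 to 3.05 CPM to 6.52 to 11.9 CPM, beside the immune markers. Sodium, proton and chloride transport gave 11 of 30 lower and 8 higher, and 7 lower without control 2 or control 3. Its median of -0.04 turned to 0.38 under total count scaling and to 0.03 without library 2 or 4. Clcn1, the chloride channel of skeletal muscle whose splicing is a classic MBNL1 target, read 0.613, 0.702, 0.700, 0.993 and 0.503 CPM against 8.11, 7.16, 6.86 and 7.49 CPM (-3.39 ± 0.19, adjusted p = 2.03e-06, edgeR).

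Intermediate filament genes rose in 10 of 11 tested members, the highest share of the 59 pathway lists, with a median of 1.56. Keratin 8 (Krt8), the partner of Krt18, read 11.9, 3.72, 3.50, 2.87 and 15.4 CPM against 0.222, 0.102, 0.203 and 0.0543 CPM (5.64 ± 0.78), and nestin (Nes) 297, 61.9, 77.1, 62.5 and 190.2 CPM against 26.1, 36.8, 27.1 and 36.1 CPM (2.13 ± 0.48). Both were highest in libraries 1 and 5. Regulators of actin filaments rose in 33 of 46 and fell in 3 (median 0.86). Flnc, the filamin of striated muscle, read 3189, 1046, 950.4, 1361 and 3146 CPM against 383, 449, 381 and 416 CPM (2.25 ± 0.39). Lcp1 and Coro1a, which bundle and turn over actin in white blood cells, rose by 2.43 ± 0.39 and 2.31 ± 0.37, beside the immune markers. S100 proteins and annexins rose in 12 of 19 and none fell, and 2 fell without libraries 1 and 5. S100a6 went from 14.9 to 17.4 CPM to 32.7 to 75 CPM, and Anxa2, a calcium-dependent membrane binder, from 65.6 to 83.5 CPM to 131 to 339 CPM. Membrane repair and dystrophin complex genes fell in 13 of 31 and rose in 6 (median -0.43, and -0.01 under total count scaling). Tcap, the titin cap of the Z-disc, fell from 1052 to 1516 CPM to 298 to 872 CPM, whereas the ferlin Myof rose from 10.4 to 13.6 CPM to 29.2 to 45.2 CPM.

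Apoptosis regulators rose in 20 of 39 tested members and fell in 7. Birc5 (survivin), an inhibitor of apoptosis made by dividing cells, went from 0.944 to 1.68 CPM to 4.05 to 9.47 CPM, and the proapoptotic factor Bid from 0.559 to 1.41 CPM to 2.14 to 6.76 CPM. In the list of necroptosis, pyroptosis and ferroptosis 16 of 21 rose and 1 fell (median 0.94). Cybb, the catalytic subunit of the phagocyte oxidase, read 31.8, 30.4, 49.8, 31.4 and 38.5 CPM against 11.1, 9.20, 9.30 and 9.29 CPM (1.91 ± 0.16), again beside the macrophage markers. Targets of p53 rose in 13 of 25 and fell in 4. Phlda3, an inhibitor of AKT that p53 induces, read 50.8, 34.3, 31.1, 35.2 and 47.03 CPM against 10.5, 12.7, 9.25 and 8.31 CPM (1.96 ± 0.18), and Btg2, an antiproliferative factor, 169, 78.1, 127, 84.1 and 155 CPM against 35.6, 33.4, 28.9 and 29.9 CPM (1.94 ± 0.24). No gene named in this paragraph overlapped between the groups, beside 45.3% of all genes tested without overlap. Histones and chromatin genes of dividing cells rose in 15 of 30 and fell in 5, with Uhrf1, which maintains DNA methylation at replication, from 3.15 to 3.81 CPM to 7.03 to 24.6 CPM.

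Enzymes that process collagen rose in 21 of 30 tested members and fell in 2 (median 0.76). P4ha3, a prolyl hydroxylase subunit, read 2.38, 6.14, 13.2, 6.77 and 2.55 CPM against 0.222, 0.152, 0.305 and 0.0543 CPM (5.03 ± 0.69), and Loxl3, a cross-linking oxidase, 33.3, 66.3, 74.5, 74.9 and 44.8 CPM against 4.94, 6.25, 5.49 and 4.89 CPM (3.44 ± 0.26, adjusted p = 6.73e-06, edgeR). Libraries 1 and 5 held the lowest KO values of both. Proteoglycan and hyaluronan genes rose in 24 of 38 and fell in 2 (median 1.01). Versican (Vcan) read 128, 71.1, 133, 87.4 and 129 CPM against 11.4, 14.8, 18.1 and 18.5 CPM (2.80 ± 0.23), and the hyaluronan receptor Cd44 94.6, 28.9, 50.4, 34.8 and 91.9 CPM against 8.997, 10.9, 10.4 and 9.34 CPM (2.60 ± 0.37). The small proteoglycan Fmod read 5.40, 95.6, 27.4, 69.8 and 7.73 CPM against 5.83, 6.3, 14.7 and 4.40 CPM and overlapped the controls in libraries 1 and 5. Its call (2.39 ± 0.82) was lost without KO library 2 or 4 and without control 1, 2 or 4, with adjusted p of 0.0589 to 0.0825, and in limma-voom (0.176). Beside these lists 8 of 10 markers of activated fibroblasts rose and none fell, with summed levels of 2304 to 4868 CPM against 375 to 439.6 CPM. Postn, periostin, the matrix protein that defines these cells, read 911, 2351, 2011, 2283 and 944 CPM against 39.6, 49.7, 62.6 and 55.3 CPM (5.04 ± 0.37). The part of more such cells in the matrix results was not tested.

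The KO libraries varied more among themselves than the controls. Over 6294 genes the median standard deviation of log2(CPM + 1) was 0.211 in the KO group and 0.0966 in the controls, and it was 0.127 in KO libraries 2, 3 and 4 alone. The 10 genes of largest spread with a mean of at least 20 CPM were Xist, the Y-linked Ddx3y and Eif2s3y, Gpnmb, Lcn2, Sfrp2, Fmod, Myh7, Hspa1b and Gm28437, a predicted gene that read 18.4, 18.3, 20.5, 937 and 18.6 CPM in the KO libraries and 58.5, 40.4, 38.7 and 48.4 CPM in the controls. A test added after this split was seen compared the response of male libraries (KO 1 and 5 against controls 1 and 4) with that of female libraries (KO 3 and 4 against controls 2 and 3), leaving out library 2. A higher or lower response here is a higher or lower log2 difference. For genes that fell in both sexes, a lower response in males is therefore a deeper fall. Of 14910 genes tested, the response was higher in males for 633 (4.25%) and lower for 898 (6.02%), 10.3% in all. With 2 libraries in each cell these counts are unstable, and leaving out 1 library at a time gave 82 to 1248 and 180 to 1407. The lowest counts came without control 2 and the highest without KO library 3.

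Proteasome and ribosome genes held the largest counts in this comparison. Of 38 proteasome subunits 20 had a higher response in males and none a lower one, with a median of 0.66 in males and -0.02 in females. Of 50 ribosome biogenesis genes 19 were higher and none lower, with medians of 0.64 and -0.01. Of 10 ventricular cardiomyocyte markers 6 had a lower response in males, with medians of -1.64 in males and -0.60 in females, a deeper fall in males. Of 36 SLC25 carriers 10 were lower and 1 higher, of 38 NRF2 and glutathione genes 1 lower and 9 higher, and of 25 p53 targets 4 lower and 8 higher. Activated fibroblast markers responded less in males for 5 of 10. Myh7, the fetal myosin heavy chain, read 174, 1216, 1561, 1317 and 120.2 CPM against 208, 289.7, 291 and 268 CPM, and its response was 2.31 in females and -0.69 in males (difference -3.01 ± 0.28, adjusted p = 0.00176, edgeR). Over all 9 libraries it was not called (1.73 ± 0.68, adjusted p = 0.0537, edgeR), but it was without libraries 1 and 5 (2.38, adjusted p = 1.45e-06), and over the alternatives that called it the adjusted p ran to 0.0405. The heat shock gene Hspa1b read 55.9, 5.40, 3.80, 7.84 and 46.1 CPM against 2.50, 2.54, 2.34 and 1.25 CPM, with responses of 1.26 in females and 4.77 in males (adjusted p of the difference 0.00662, edgeR). Hspa1b has a near-identical copy beside it, and its overall call was lost in limma-voom. Myh7 and Hspa1b were picked for their spread among these same KO libraries, and the test was added after the split was seen. Their adjusted p values therefore describe this split and are no independent evidence for it. The list counts above compare the same libraries and likewise only describe the split, in which sex and Esr1 level cannot be told apart. They are given with no library left out beyond KO library 2.

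**Figure D4:**
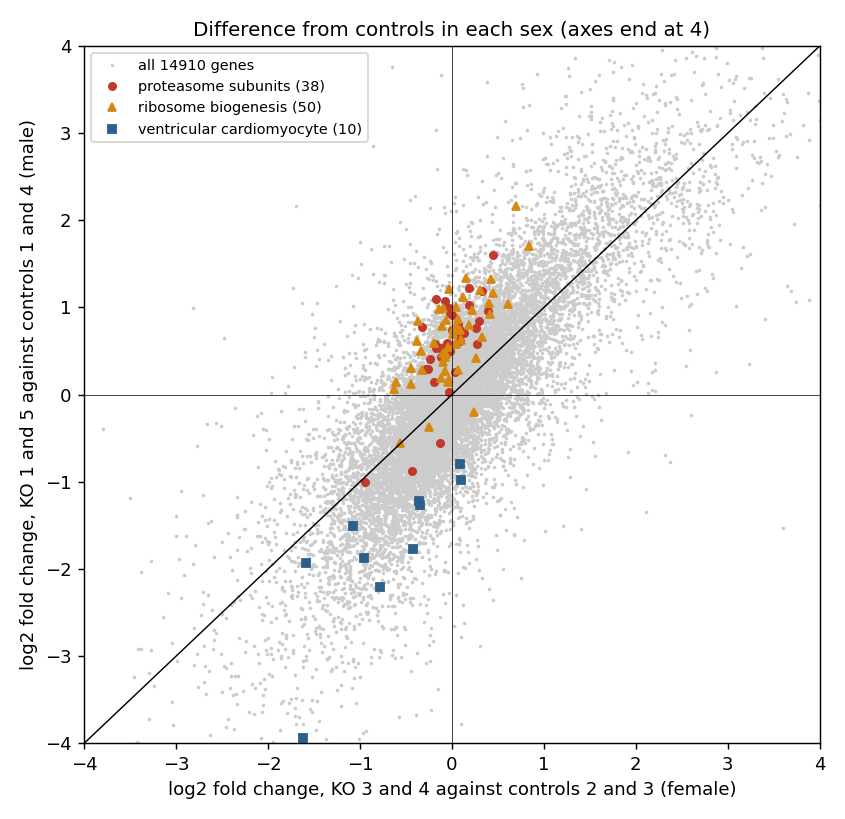
Log2 fold change of each of 14910 genes in female libraries (KO 3 and 4 against controls 2 and 3, x axis) and in male libraries (KO 1 and 5 against controls 1 and 4, y axis). The diagonal marks equal change. Nearly all proteasome subunits (circles) and ribosome biogenesis genes (triangles) lie above it, and 10 ventricular cardiomyocyte markers (squares) below it.

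The libraries at 14 days after knockout, which belong to other samples and were not part of the fit, give the level of the same genes in males of another time. On a scale common to all 27 libraries, Esr1 read 234 and 195 CPM in the male KO libraries at 7 days and 1691 and 1849 CPM in those at 14 days. Myh7 read 191 and 132 CPM in the former and 2079 and 1848 CPM in the latter. Procr read 32.4 and 29.8 CPM against 2.11 and 1.99 CPM, and Lcn2 145 and 217 CPM against 9.76 and 6.80 CPM. For these 4 genes the male KO libraries of 14 days lay near the female KO libraries of 14 days. The males of 7 days stood apart in each of them, so they do not speak for other genes. Gpnmb read 181 and 162 CPM in the male KO libraries at 7 days. At 14 days it read 45.03 and 28.5 CPM in the male and 14.6 and 12.9 CPM in the female KO libraries. The difference between the times in males was not tested.

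**Figure D5:**
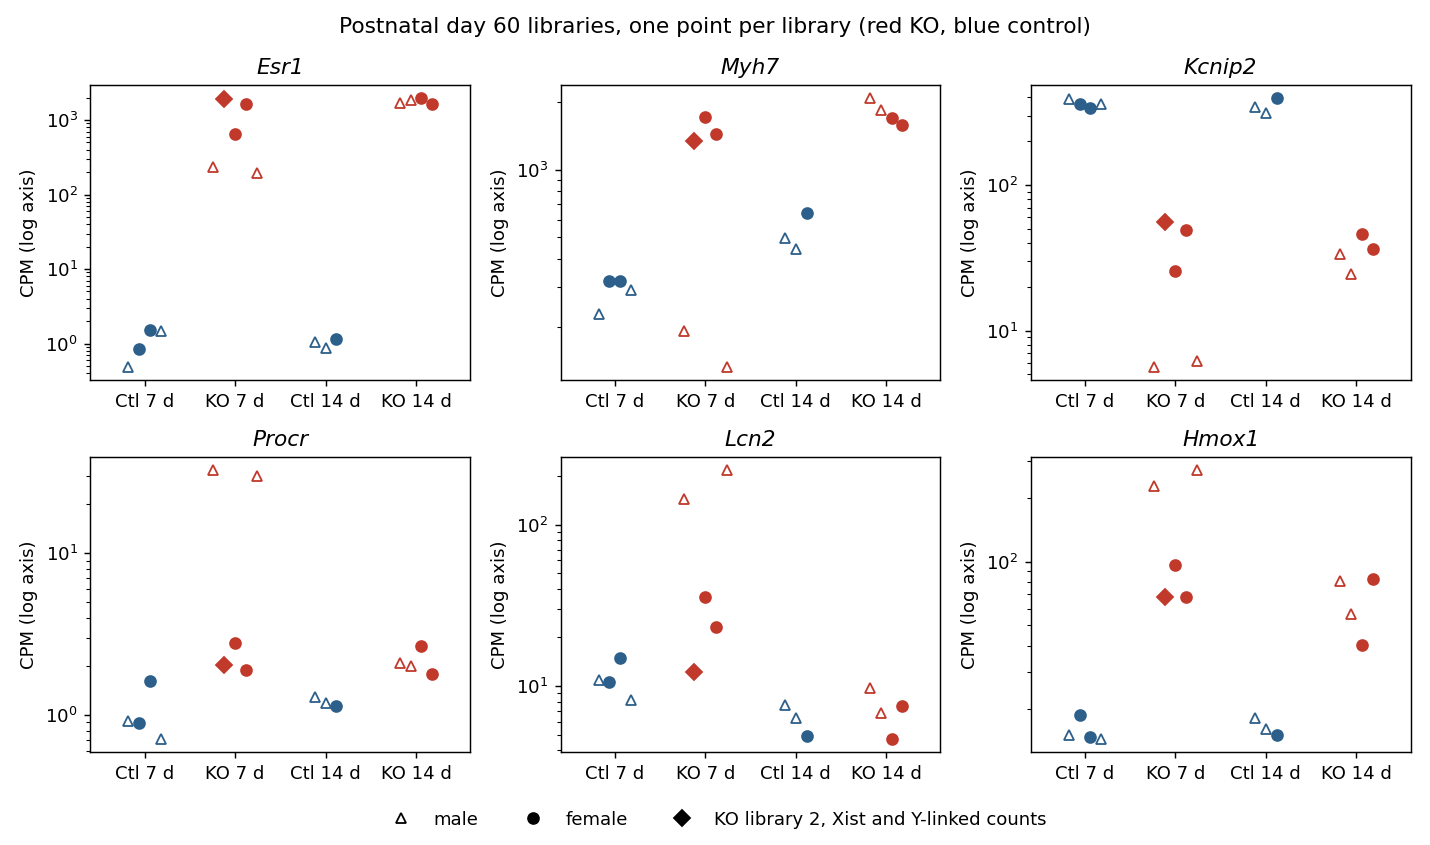
Levels of 6 genes in the 16 libraries of postnatal day 60, in CPM on a log axis, by group (Ctl, control; d, days after knockout). Each point is 1 library, red for KO and blue for control, with open triangles for males, circles for females and a diamond for KO library 2. The male KO libraries of 7 days stand apart from all other KO libraries for Myh7, Kcnip2, Procr, Lcn2 and Hmox1, and are the lowest KO libraries for Esr1.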

How the data were processed

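The authors deposited a table of raw counts per gene, whole numbers with a total that differs from library to library. STAR, featureCounts, DESeq2, Salmon and the build GRCm38 (mm10) are named, without version or role, per the submitters' processing notes. Per the labels' protocols, RNA was extracted with TRIzol and a column kit and sequenced by BGI on DNBseq. No annotation release and no strand setting is stated in the sources used here. Of 55487 genes, 55227 were found in the annotation used here (GENCODE M21, GRCm38). The other 260 held at most 0.00453% of the counts of a library.

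Counts of the 9 libraries were fitted with edgeR 4.0.16 in R 4.3.3 (filterByExpr, TMM, quasi-likelihood F test, Benjamini-Hochberg adjustment over 15167 genes, called at adjusted p under 0.05). Differences are log2 KO minus control ± SE, the SE being the absolute difference over the square root of F. Levels are CPM after TMM scaling over the 9 libraries. DESeq2 1.42.0 and limma-voom 3.58.1 were alternatives, beside other scalings, filters, a replicate block, a sex covariate, left-out libraries and a fit of the 16 libraries of day 60. The procedure was tested on simulated data with few changed genes and equal scatter in both groups. The real libraries had many more changed genes and more scatter in the KO group, a setting the simulation does not check. Pairs of libraries of a group differed by a chi-square of 10.2 to 147 per degree of freedom over genes with at least 20 summed counts, so each was counted as 1 sample. The members and the gene lists were chosen with earlier results of these data known.

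Named genes are the 12 largest rises and falls among called genes with separate groups, at least 5 CPM on average and a symbol that is not a predicted one. They include the 10 genes with the smallest p, up to 4 called members of each list by size of change with a mean of at least 2 CPM, the 10 genes of largest spread among KO libraries with a mean of at least 20 CPM, genes switched on or off with a mean of at least 5 CPM, and Mbnl1, Mbnl2, Mbnl3 and Esr1. Not all genes the rule takes are described. Myh7 and Hspa1b come from the spread part of the rule.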

Additional observations from a re-analysis of the deposited data

Results flagged for a closer look

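Listed here are genes named in the text whose response was called different between male and female libraries. The test was of the difference itself (edgeR quasi-likelihood test, adjusted p under 0.05, 2 libraries a sex and group, without KO library 2). It was added after the split of the KO libraries was seen, so the calls describe that split and are no independent evidence for it. Gpnmb, Lcn2, Sfrp2, Myh7 and Hspa1b were also picked by their spread among the KO libraries. Values are log2 differences, male minus female. Over all genes the response was higher in males for 633 and lower for 898. It was higher for the inflammatory and coagulation genes Procr (4.35), Clcf1 (3.12) and Lcn2 (3.05), the ligand Tgfb2 (1.32) and the phagocyte gene Gpnmb (2.98). The antioxidant and metal genes Srxn1 (2.74), Hmox1 (1.77) and Mt2 (1.56) and the chaperones Hspa1b (3.51) and Hsp90aa1 (1.18) were also higher in males. So were Nes (1.83), Flnc (1.51) and Cd44 (1.34) of structure and adhesion, the clock gene Arntl (2.49), and Slc7a5 (1.73), Rrp12 (1.47), Plin2 (1.32), Psma5 (1.16), Uck2 (0.99) and Pgd (0.93) of biosynthesis and turnover.

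The response was lower in males for Armc2 (-3.16), Myh7 (-3.01), Kcnip2 (-2.78), Pln (-2.33), Asb15 (-2.30), Asb14 (-2.12), Klhl33 (-1.91), Kcnv2 (-1.58), Slc2a4 (-1.22) and Tmem82 (-1.18). Apart from Myh7, these genes fell in both sexes and fell further in males. Mitochondrial genes that likewise fell further in males were Mtfp1 (-2.16), Slc25a34 (-2.12), Coq8a (-1.71), Slc25a11 (-1.23), Fars2 (-0.70) and Bola3 (-0.69). The secreted and matrix genes Sfrp2 (-2.88), Sfrp1 (-1.53), Postn (-0.97) and Fstl1 (-0.77) rose less in males. Cdnf (-1.23) and Vldlr (-1.02) fell further in males. Leaving out each of the 8 libraries in turn, scaling by total counts, or adding KO library 2 as a female kept the call of Procr, Hspa1b, Clcf1, Lcn2, Srxn1, Hmox1, Slc7a5, Rrp12, Hsp90aa1, Psma5, Armc2, Myh7, Kcnip2, Asb14, Asb15, Mtfp1, Coq8a and Slc25a11. Each of the other genes above lost its call in at least 1 of these settings. Sex, the Esr1 level and the second principal component cannot be told apart among these libraries.

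A single library stood apart within its group for 19 levels, and chance alone gives such a gap in about 1 in 20 groups. With 174 named genes tested and 2 groups each, that rate alone would give a number of this order. The levels below are therefore a description only. In KO library 4 the predicted gene Gm28437 read 937 CPM, against 18.3 to 20.5 CPM in the other KO libraries. KO library 3 was the highest for Col12a1 (114 CPM), Adgre1 (67.2 CPM), Soat1 (24.9 CPM) and Rian (22.7 CPM), and KO library 5 the lowest for Creb3l2 (111 CPM). Control 1 stood apart for Fstl1 (82.1 CPM), Pde4c (11.7 CPM), Cybb (11.1 CPM), Coro1a (5.72 CPM), Dok1 (3.78 CPM), Mbnl3 (0.444 CPM) and Il1rn (0.167 CPM). The Il1rn level is that of 3 counts in this library. Control 2 stood apart for Hmox1 (17.2 CPM), control 3 for Pycr1 (0.915 CPM), and control 4 for Kdr (122 CPM), Armc2 (39.6 CPM), Kcnv2 (13.8 CPM) and Hspa1b (1.25 CPM). Except for Gm28437, each of these genes kept its direction and its side of the threshold without the library that stood apart.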

How the results depend on the processing

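Scaling by total counts gave 8065 higher and 1588 lower genes against 4001 and 3692, and 17 genes called in both settings had the opposite sign. No gene called in both had the opposite sign under DESeq2 (4116 higher, 3914 lower), limma-voom (3753, 3788), median-ratio scaling, no filter, a minimum of 1 CPM, a sex covariate or a fit of 16 libraries. Leaving out single libraries gave 3618 to 3994 higher and 3065 to 3616 lower genes. Of 174 named genes tested, 170 were called, and 160 kept that side of the threshold in each alternative run. The log2 difference of Gm28437 (2.12) ran from -1.29 without KO library 4, where it was called lower, to 2.43 without KO library 5. Genes switched on numbered 1, and 8 at a minimum of 0.5 CPM, 7 with up to 8 counts in the absent group, 2 without KO libraries 1 and 5, and 1 to 4 without single libraries. Genes switched off numbered 0, and 1 at 0.5 CPM, 2 with up to 8 counts and 0 to 1 without single libraries. The spread among KO libraries was 0.127 without libraries 1 and 5 against 0.211. The response was higher in males for 82 to 1248 genes and lower for 180 to 1407 without single libraries, and for 837 and 1164 with KO library 2 as a female. The cause of these shifts was not tested.

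KO and control libraries share numbers 1 to 4 in the labels. Same-numbered libraries did not deviate together (correlation -0.119 to 0.109 over the pairs), and 2 of 4 KO libraries correlated best with the control of their own number, so the numbers were not taken as a pairing. With the number as a replicate block, which leaves KO library 5 without a partner, 3437 genes were higher and 3249 lower. Higher members of the lists of ER chaperones and of cholesterol synthesis then numbered 6 and 9, of ribosome biogenesis 3, of clock genes 2, of autophagy and of the cytosolic chaperonin 1 each, and of aminoacyl-tRNA synthetases 0. Depth limits only genes near 0.105 to 0.167 CPM, the range of 3 counts.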
